A study of Mus musculus with 3 samples.

Results

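Resting basal keratinocytes were taken from single-cell libraries of mouse dorsal skin. They made up 3999 of the 26847 barcodes that were kept, with 963 in Neg, 1641 in AA and 1395 in AA+Ab. They were chosen by expression. *Krt5* and *Krt14* together had to reach 1% of the UMIs of a cell, and *Krt1* with *Krt10* had to stay under 0.1 of that sum. A cell with a UMI of *Mki67*, *Top2a*, *Krt79*, *Krt71*, *Krt35*, *Sostdc1*, *Fst*, *Shh*, *Iigp1*, *Krt16* or *Ptprc* was left out. A UMI, a unique molecular identifier, stands for 1 captured mRNA molecule. The levels of these 15 genes in the chosen cells are therefore a description and not a result.

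All mice were female C3H/HeN mice, 25 weeks old. The Neg group received vehicle, the AA group was a model of alopecia areata, an autoimmune hair loss, and the AA+Ab group was the same model given an antibody that neutralizes the chemokine CXCL12. The model is made by transfer of lymph node cells from an affected donor mouse. Back skin of 7 to 8 mice was pooled in each group before capture, so that each group is 1 library. No test between groups is possible, and the mice, the digestion, the library and the condition cannot be told apart. Every interval below covers counting error only.

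The epidermis renews from a single basal layer. Basal keratinocytes sit on the basement membrane, which they hold through integrins and hemidesmosomes, and their intermediate filaments are built of keratins 5 and 14. Cells that leave this layer switch to keratins 1 and 10, and the transcription factor p63 maintains the basal state. In alopecia areata the lymphocytes gather at the hair follicle, and keratinocytes of the skin can answer the interferon that these cells release.

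The label was checked against markers in Neg, AA and AA+Ab. Levels are given as counts per 1000000 UMIs (CPM) after the UMIs of all chosen cells of a library were summed, and values given in a row stand in the order Neg, AA, AA+Ab. *Krt14* (chr11:100203162-100207548, GRCm38, as all gene positions here) stood at 11036, 12308 and 12015 CPM and *Krt5* (chr15:101707070-101712898) at 5734, 5418 and 5772 CPM. *Krt15*, a basal keratin that was not used for the choice, reached 5848 CPM in Neg, 5550.1 CPM in AA and 5654 CPM in AA+Ab. *Col17a1*, the hemidesmosomal collagen XVII, stood at 1261, 1330.0 and 1193 CPM, *Itga6*, the alpha 6 integrin of hemidesmosomes, at 1239, 1188 and 1068 CPM and *Itgb4*, the beta chain of that integrin, at 241, 268 and 198 CPM. *Krt15* had a UMI in 99.7, 99.8 and 99.6% of the cells and *Col17a1* in 99.3, 99.8 and 99.6%, so that both were found in nearly every cell. In suprabasal cells, chosen by *Krt1* and *Krt10*, *Col17a1* was at 439, 425 and 425 CPM and *Itgb4* at 32.9, 31.3 and 39.3 CPM. In T cells, chosen by *Ptprc* and *Cd3e*, *Itgb4* was at 55.8, 28.7 and 29.4 CPM. The T cells had smaller median UMI counts, of 5409.5, 4391 and 4559, than the basal cells, with 12015, 10632 and 10730.

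**Figure D1:**
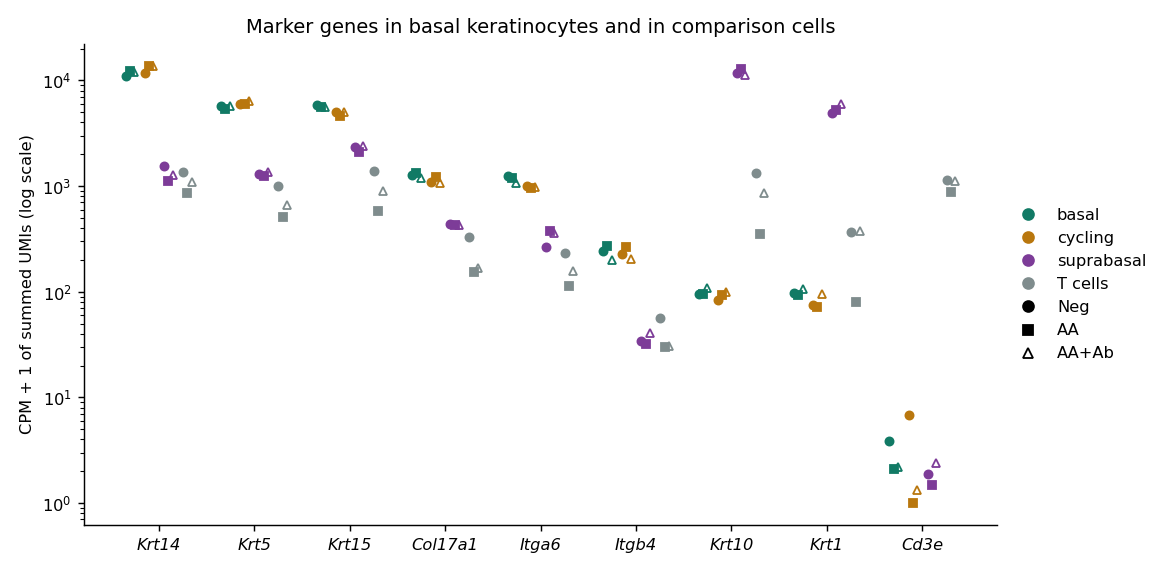
CPM + 1 of the summed UMIs (log axis) of 9 marker genes in 4 kinds of cells (colour) of the 3 libraries (symbol), without error bars. In each library *Krt15*, *Col17a1*, *Itga6* and *Itgb4* stood higher in basal and cycling cells than in suprabasal cells and T cells.

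The chosen cells may still hold cells of the follicle. *Sox9* had a UMI in 2.08, 4.205 and 2.51% of them in Neg, AA and AA+Ab, against 3.92, 3.06 and 3.704% of T cells. *Lgr5* was found in 1.14, 1.04 and 1.004% against 2.45, 1.11 and 2.56%, and *Cd34* in 0.208, 0.366 and 0.143% against 0.9804, 0.556 and 0.855%. The T cells, which should lack the genes, had fewer UMIs. With every cell thinned to 2000 UMIs, *Sox9* was found in 0.629, 1.16 and 0.866% of basal cells and 2.05, 0.619 and 1.49% of T cells. *Lgr5* was found in 0.314, 0.122 and 0.505% against 1.54, 0.929 and 1.49%. *Cd34* was found in 0.21, 0.122 and 0% against 0% in each library. These low shares are read as background, although that of *Sox9* in AA was above the share in T cells. *Postn* differed, with a UMI in 64.1, 66.8 and 66.2% of the basal cells and 7.35, 6.11 and 5.698% of T cells, and so did *Barx2*, with 39.5, 41.5 and 40% against 7.35, 4.44 and 4.84%. With every cell thinned to 2000 UMIs, *Postn* was still found in 19.6, 24.9 and 22.3% of basal cells and 2.05, 1.86 and 0.893% of T cells. Both genes stand in the list of follicle genes, so follicle genes were not all absent from the chosen cells. The authors identified outer bulge cells by *Barx*. Cells with a UMI of *Krt79*, one of their upper follicle markers, were left out by the rule. Basal cells of the follicle, from the outer bulge or elsewhere, cannot be told apart from those of the epidermis here.

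The keratin share was not a natural gap. Of the cells that met all other conditions, 73 in Neg, 116 in AA and 100 in AA+Ab lay between 1% and 1.1%, and 63, 99 and 88 lay between 0.9% and 1%. The median keratin share was 1.57%, 1.61% and 1.64%. Some excluded genes removed unequal parts of the libraries. *Krt16* alone, a keratin of stressed and wounded epidermis, left out 176 cells in Neg (15.5% of those that met all other conditions), 549 in AA (25.1%) and 212 in AA+Ab (13.2%). *Iigp1* alone, an interferon-induced GTPase, left out 0 of 963 cells in Neg, which allows a share of up to 0.382% (exact binomial limit), 190 in AA (10.4%) and 30 in AA+Ab (2.11%). The cells described here are therefore those in which neither gene was captured.

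Basal cells made up 14.6% of the kept barcodes in Neg (95% Clopper-Pearson interval 13.8 to 15.5), 15.7% in AA (15.04 to 16.4) and 14.2% in AA+Ab (13.5 to 14.9). Their summed UMIs came to 11952337, 17862175 and 15095974. The median share of mitochondrial UMIs was 1.95% in Neg, 1.72% in AA and 1.44% in AA+Ab, and ribosomal protein genes took 27.0%, 25.4% and 28.2% of the UMIs. Of the chosen cells 9, 89 and 57 scored as doublets and were kept. The part of these measures in the differences below was not tested. The libraries shared 18, 17 and 28 barcodes in pairs, of 6965 to 10879 in each.

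The genes that most set the chosen cells apart from all other kept cells included receptors and secreted or matrix proteins. Among the 15 leading genes, *Bmpr1b*, a BMP receptor, stood at 92.4 CPM in Neg, 132 CPM in AA and 76.05 CPM in AA+Ab, a mean of 100.2 CPM against 28.9 CPM in the other cells. *Il1r2*, the decoy receptor of interleukin 1, was at 136, 135 and 132 CPM and thus close to level across the 3 libraries, as was *Serpinb7*, a serine protease inhibitor, at 144, 131 and 146 CPM. *Il20ra*, a receptor chain for interleukins of the IL-20 group, was at 231, 203 and 227 CPM. *Thbs2*, a matrix thrombospondin, was at 137, 105 and 119 CPM and *Sox6*, a transcription factor, at 598, 568 and 464 CPM. The others were *Depp1*, *Gm48893*, *Ablim3*, *Gm15283*, *Aknad1*, *Cbr2*, *Slc6a4*, *Slc4a8* and *Fbxo32*. Since the cells were chosen by expression, these values describe the choice.

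The first comparison was AA against Neg. Of 7632 genes with a mean of at least 10 CPM over the libraries, 203 (2.66%) were at least 1.5-fold higher in AA and 120 (1.57%) at least 1.5-fold lower, with a median log2 ratio of -0.02 over all of them. AA+Ab against Neg gave 52 genes higher (0.681%) and 186 lower (2.44%), with a median of -0.0044. AA+Ab against AA gave 88 higher (1.15%) and 388 lower (5.08%), with a median of 0.01. The comparisons share libraries, so a gene that stands apart in AA alone appears in 2 of them.

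**Figure D2:**
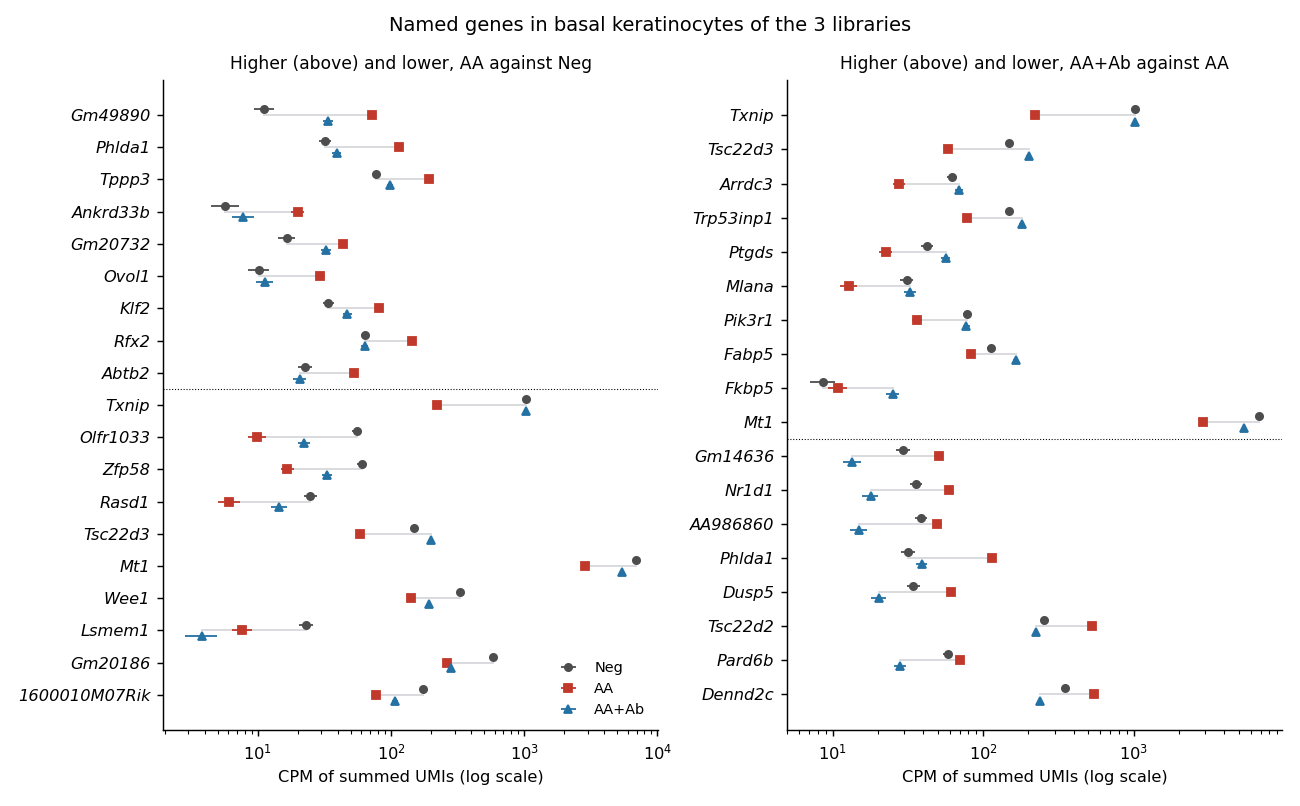
CPM of the summed UMIs (log axis) in Neg, AA and AA+Ab for genes at the ends of AA against Neg (left) and of AA+Ab against AA (right), bars being 95% Poisson intervals of the counts. *Txnip* and *Tsc22d3* are low in AA alone, and *Phlda1* and *Rfx2* are high in AA alone.

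*Txnip*, which encodes an arrestin-like protein that binds thioredoxin and restrains glucose uptake, lies at chr3:96557957-96561883 and had the smallest ratio of AA to Neg once 5 CPM was added to each level. It stood at 1025 CPM in Neg, 222 CPM in AA and 1029.9 CPM in AA+Ab. AA was the low library, and Neg and AA+Ab were level, with a log2 ratio of 0.01 between them. AA lay 4.61-fold below Neg (log2 ratio -2.21, 95% interval -2.26 to -2.15), and AA+Ab lay 4.63-fold above AA. In single cells the median was 715, 89.3 and 742 CPM, and 9.76, 42.9 and 11.9% of the cells had no *Txnip* UMI. The lower level of AA was thus seen in the median cell and was not carried by a few cells. *Arrdc3*, an arrestin-domain gene related to it, followed the same order with 62.2 CPM in Neg, 27.7 CPM in AA and 69.4 CPM in AA+Ab. *Pik3r1*, a regulatory subunit of phosphoinositide 3-kinase, was at 78.6, 36.7 and 77.6 CPM and *Trp53inp1*, a gene induced by p53, at 149.6, 77.9 and 181 CPM.

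The metallothioneins, small proteins that bind zinc and copper, were low in AA as well. *Mt1* (chr8:94179082-94180327) was at 6866 CPM in Neg, 2887 CPM in AA and 5416 CPM in AA+Ab, 2.38-fold below Neg in AA (log2 ratio -1.25, 95% interval -1.27 to -1.23), and AA+Ab lay between. Its median in single cells was 5819, 2063 and 4606 CPM. *Mt2* (chr8:94172664-94173568) was at 2038 CPM in Neg, 1025 CPM in AA and 1603 CPM in AA+Ab, 1.99-fold below Neg in AA. The other 6 tested genes of the metallothionein and antioxidant list did not reach 1.5-fold in AA against Neg: *Prdx1*, a peroxiredoxin, was at 443, 396 and 495 CPM, *Sod2*, the mitochondrial superoxide dismutase, at 69.4, 63.5 and 78.2 CPM and *Txnrd1*, thioredoxin reductase, at 69.1, 64.1 and 56.2 CPM. Of the 8 tested of 13 in the list, 0 were higher and 2 lower in AA, beside 2.66% and 1.57% of all genes tested, with a median log2 ratio of -0.14. In AA+Ab against AA 4 were higher, beside 1.15% of all genes tested, with a median of 0.48. Beside *Mt1* and *Mt2* these 4 were *Gclm*, a subunit of glutathione synthesis (11.6, 10.02 and 15.8 CPM), and *Aldh3a1*, an aldehyde dehydrogenase (13.7, 14.2 and 25.6 CPM).

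**Figure D3:**
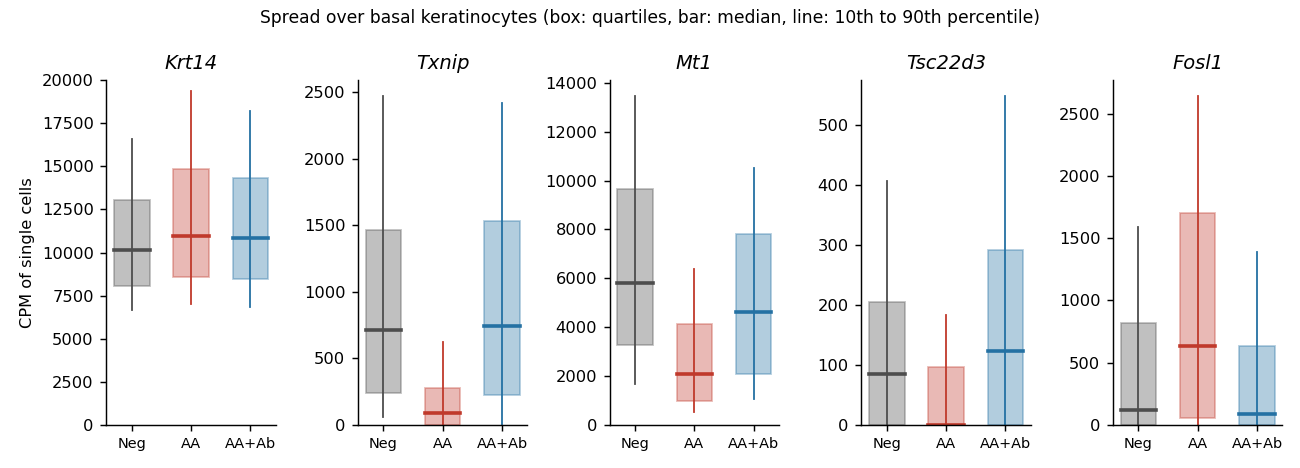
CPM of 5 genes in single basal cells of Neg, AA and AA+Ab, with the median (bar), quartiles (box) and 10th to 90th percentile (line), each axis from 0. *Txnip*, *Mt1* and *Tsc22d3* are shifted down and *Fosl1* up in AA, while *Krt14* has like medians of 10122 CPM, 10956 CPM and 10816 CPM.

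The upstream sequences of *Txnip*, *Mt1* and *Mt2* are shown because these genes, of high UMI counts, were lower in AA than in Neg in the sum and in the median cell. Each run holds the 250 bases before the RefSeq start in GRCm38.p6, 5′ to 3′. Capitals mark matches on either strand of CACGNG in *Txnip*, a form of the half-site of carbohydrate response elements, and of TGCACNC or TGCGCNC in *Mt1* and *Mt2*, the core of metal response elements. Overlapping matches were counted separately.
*Txnip* (chr3:96557707-96557956, + strand): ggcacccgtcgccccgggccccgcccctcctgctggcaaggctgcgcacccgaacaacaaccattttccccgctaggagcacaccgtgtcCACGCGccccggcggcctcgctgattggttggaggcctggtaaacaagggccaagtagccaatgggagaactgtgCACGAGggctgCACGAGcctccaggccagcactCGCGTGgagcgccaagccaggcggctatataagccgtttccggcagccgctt
*Mt1* (chr8:94178839-94179088, + strand): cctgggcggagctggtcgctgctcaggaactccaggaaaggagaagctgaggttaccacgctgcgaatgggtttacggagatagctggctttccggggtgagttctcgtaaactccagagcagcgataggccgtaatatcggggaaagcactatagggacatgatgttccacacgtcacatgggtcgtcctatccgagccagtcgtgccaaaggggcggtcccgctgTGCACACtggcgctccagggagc
*Mt2* (chr8:94172368-94172617, + strand): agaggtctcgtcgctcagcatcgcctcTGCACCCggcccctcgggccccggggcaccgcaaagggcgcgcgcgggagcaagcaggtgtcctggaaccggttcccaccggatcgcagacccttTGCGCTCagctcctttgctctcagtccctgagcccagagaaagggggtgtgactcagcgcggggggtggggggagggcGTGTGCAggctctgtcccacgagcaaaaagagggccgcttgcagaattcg
*Txnip* held 4 matches, 3 of them on the forward strand, and the sites nearest each other began 85 and 74 bases before the start. A match of CACGNG was found in 23.6% of 32536 promoter windows, and at least 4 in 0.839%. *Mt2* held 3 matches of TGCACNC or TGCGCNC, a number reached in 1.28% of the windows. *Mt1* held 1, and 21.5% of the windows hold at least that many. The *Mt1* window ended at 94179088, past the gene start of 94179082 given above. The *Mt2* window ended at 94172617, short of the gene start of 94172664. Other transcript starts of *Mt1* and *Mt2* were not searched, so these counts hold for the printed windows only. A match of letters is a description and not a binding site.

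*Tsc22d3*, which encodes a leucine zipper protein induced by glucocorticoids, also stood low in AA, with 149 CPM in Neg, 58.2 CPM in AA and 201 CPM in AA+Ab. It was 2.56-fold below Neg in AA and 3.46-fold above AA in AA+Ab, and AA+Ab was the highest library. *Rasd1*, a Ras-like GTPase named for its induction by dexamethasone, was at 24.8, 6.102 and 14.4 CPM. *Fkbp5*, a co-chaperone of the glucocorticoid receptor, was high in AA+Ab alone, with 8.62 CPM in Neg, 10.9 CPM in AA and 25.1 CPM in AA+Ab. It reached the minimum mean of the comparison only through AA+Ab. *Wee1*, a kinase that holds back entry into mitosis, differed in another way. It was at 328 CPM in Neg, 142 CPM in AA and 192 CPM in AA+Ab, low in both model libraries. The same was true of the transcript *Gm20186*, at 583, 262 and 284 CPM, and of *Lsmem1*, at 23.2, 7.61 and 3.78 CPM. *Lsmem1* reached the minimum mean of the comparison only through Neg. *Zfp58*, a zinc finger gene, was at 60.3, 16.7 and 32.9 CPM. *Olfr1033*, an olfactory receptor gene, was at 55.2, 9.91 and 22.3 CPM, lowest in AA with AA+Ab between, as was *Zfp58*. *1600010M07Rik*, a gene without an assigned name, was at 173, 77.2 and 107 CPM.

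Among the genes higher in AA was *Phlda1* (chr10:111506286-111508645), a pleckstrin homology-like gene. It was at 31.8 CPM in Neg, 115 CPM in AA and 39.1 CPM in AA+Ab, 3.61-fold above Neg in AA. *Ovol1*, a transcription factor of epidermal differentiation, stood at 10.2, 29.2 and 11.3 CPM, from 122, 521 and 170 UMIs. AA lay below Neg, at a log2 ratio of -0.25, when cells with a UMI of any follicle gene were left out. *Postn* alone had a UMI in 64.1, 66.8 and 66.2% of the cells, so that ratio rests on a minor part of the cells and few UMIs. AA was also the high library for *Rfx2*, a transcription factor of the RFX family, at 64.1, 144 and 63.5 CPM, and *Klf2*, a Krüppel-like factor, at 33.9, 81.4 and 47.1 CPM. *Tppp3*, a tubulin-binding protein, was at 76.9, 193 and 97.8 CPM, *Abtb2* at 22.5, 52.8 and 20.7 CPM and *Ankrd33b* at 5.69, 19.9 and 7.75 CPM. *Ankrd33b* reached the minimum mean of the comparison only through AA. In these 7 genes AA was the high library in basal cells, and AA+Ab lay within 1.5-fold of Neg. In cycling cells, chosen by *Mki67* or *Top2a*, this did not hold for *Ovol1*, at 10.5, 24.5 and 24.6 CPM. Nor did it for *Klf2*, at 29.8, 49.2 and 50.05 CPM. AA was the high library there for the others, and *Abtb2* was 1.75-fold above Neg in AA+Ab. In basal cells the transcript *Gm49890* differed from these 7 genes. At 11.2, 71.996 and 33.5 CPM, it was higher in both model libraries against Neg, 6.42-fold and 2.99-fold.

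Growth factor receptors and their ligands were listed next. Of the 10 tested of 14 in that list, 3 were at least 1.5-fold higher and 0 lower in AA against Neg, beside 2.66% and 1.57% of all genes tested. The ratio was above 1 in 6 of the 10, with a median log2 ratio of 0.25 against -0.02 over all genes. In AA+Ab against AA 0 were higher and 5 lower, beside 1.15% and 5.08% of all genes tested, with a median of -0.45. Among the ligands, *Hbegf*, heparin-binding EGF-like growth factor, was at 119 CPM in Neg, 248 CPM in AA and 159.8 CPM in AA+Ab, and *Tgfa*, transforming growth factor alpha, at 14.1, 29.6 and 19.1 CPM. *Egfr*, the receptor of both, was at 303 CPM in Neg, 451 CPM in AA and 212 CPM in AA+Ab, 1.49-fold higher in AA than in Neg, just short of 1.5-fold, and 2.12-fold lower in AA+Ab than in AA. *Met*, the receptor of hepatocyte growth factor, followed with 103 CPM in Neg, 176 CPM in AA and 97.97 CPM in AA+Ab, and *Igf1r* with 174, 216 and 141 CPM. *Fgfr2*, a receptor of fibroblast growth factors, was lowest in AA, at 409, 330.4 and 362 CPM. *Fgfr3* was too, at 71.95, 56.4 and 67.9 CPM, and neither reached 1.5-fold. *Dusp5*, a phosphatase that acts on ERK, was at 34.5, 61.5 and 20.3 CPM.

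Immediate-early genes were abundant in all 3 libraries, with a sum over the 17 genes of 29923 CPM in Neg, 34093 CPM in AA and 30115 CPM in AA+Ab. Of these 17 genes 2, *Fosl1* and *Ier3*, passed 1.5-fold in AA against Neg, both higher in AA, beside 2.66% of all genes tested. *Fosl1* (chr19:5447547-5455946), an AP-1 subunit, was at 543 CPM in Neg, 1062 CPM in AA and 471 CPM in AA+Ab, with medians in single cells of 119, 634 and 88.1 CPM. *Ier3* was at 194, 341 and 272 CPM. *Fos* itself was at 4037, 4199.5 and 4569 CPM, *Jun* at 3068, 3357 and 3018 CPM and *Atf3* at 4488, 5302 and 4688 CPM. None of these 3 reached 1.5-fold in any comparison. *Nr4a1*, an orphan nuclear receptor, was low in AA+Ab, at 619, 734 and 394 CPM. The median log2 ratio of the list was 0.18 in AA against Neg and -0.18 in AA+Ab against AA. Among 11 heat-shock genes, the inducible *Hspa1a* was lowest in AA+Ab, at 383, 339.5 and 179 CPM. *Hspa1b*, its near-identical copy, was at 326, 225 and 158 CPM, and reads may be split between the pair. *Hspa8*, the constitutive family member, was at 1191, 1241 and 1104 CPM. No heat-shock gene passed 1.5-fold in AA against Neg, beside 2.66% higher and 1.57% lower of all genes tested. Against Neg 2 were lower in AA+Ab, *Hspa1a* and *Hspa1b*, beside 2.44% of all genes tested. Against AA 2 were lower in AA+Ab, *Hspa1a* and *Hsph1* (30.5, 39.2 and 21.4 CPM), beside 5.08% of all genes tested.

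The genes that anchor the basal layer were largely level. None of the 15 genes for hemidesmosomes and basement membrane, all of which were tested, passed 1.5-fold in AA against Neg. Of all genes tested 2.66% were higher and 1.57% lower there, and the median log2 ratio of the 15 was -0.01. In AA+Ab 1 of the 15 was at least 1.5-fold lower in each of its comparisons, beside 2.44% of all genes tested against Neg and 5.08% against AA. Of the genes for laminin chains, *Lama3* was at 237, 219 and 189 CPM and *Lamb3* at 167, 176 and 165 CPM. *Itgb1*, the beta 1 integrin, was at 404, 567 and 398 CPM, highest in AA but under 1.5-fold. *Col7a1*, the collagen of anchoring fibrils, was at 70.1, 62.9 and 70.4 CPM, and *Dst*, which links keratins to hemidesmosomes, at 939, 912 and 831 CPM.

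Basal transcription factors differed little. *Trp63*, the gene of p63, was at 967 CPM in Neg, 808 CPM in AA and 812 CPM in AA+Ab. Of 12 tested of 14 in the list, *Id1*, an inhibitor of helix-loop-helix factors, was higher in both model libraries, at 25.6, 49.4 and 48.95 CPM. No gene was at least 1.5-fold lower in either against Neg. Of all genes tested, 2.66% were higher and 1.57% lower in AA against Neg, and 0.681% and 2.44% in AA+Ab against Neg. Against AA, 2 genes were at least 1.5-fold lower in AA+Ab, beside 5.08% of all genes tested. Among them was *Foxp1*, a forkhead factor, at 264, 299 and 197 CPM. In the Notch and Wnt list, 14 of 16 genes were tested. In AA against Neg 0 of them passed 1.5-fold, beside 2.66% higher and 1.57% lower of all genes tested. The median log2 ratio of the list was -0.24. *Hes1*, a target of Notch, was 2.03-fold lower in AA+Ab than in Neg, with 66.8 CPM in Neg, 48.9 CPM in AA and 32.9 CPM in AA+Ab. *Jag2*, a Notch ligand, was at 129.8, 107 and 113 CPM, and *Wnt4*, a Wnt ligand of the epidermis, at 192, 128 and 182 CPM. *Wnt10a*, another, was at 105, 85.8 and 94.9 CPM. *Lgr6*, a receptor of R-spondins, was at 85.5, 68.4 and 65.2 CPM.

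**Figure D4:**
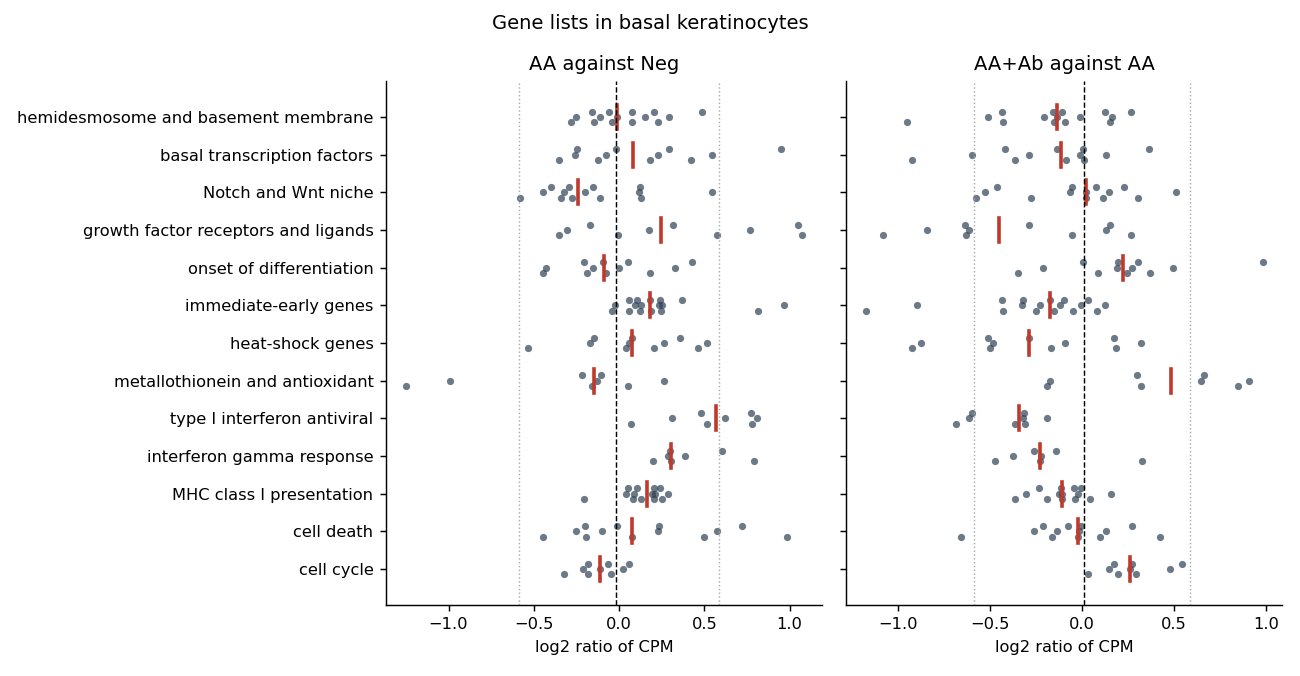
Log2 ratios of CPM of the tested genes (points) in 13 gene lists for AA against Neg (left) and AA+Ab against AA (right), with list medians (red bars), the median of all 7632 genes (dashed) and 1.5-fold (dotted). Most points lie inside 1.5-fold, and *Mt1* and *Mt2* lie past 1.5-fold on the low side in AA against Neg.

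Interferon genes were higher in AA than in Neg even though cells with an *Iigp1* UMI had been left out. Of 8 tested of 25 genes of the type I antiviral list, 4 were at least 1.5-fold higher in AA against Neg, beside 2.66% of all genes tested, and 0 lower, with a median log2 ratio of 0.57. *Irf9*, which forms the interferon-stimulated transcription complex with STAT2, was at 11.5, 17.7 and 14.2 CPM and *Stat2* at 13.1, 22.5 and 18.1 CPM. The others were *Trim25*, a ubiquitin ligase of the antiviral response, at 38.9, 68.1 and 44.4 CPM, and *Ifi27l2a* at 16.3, 27.9 and 18.4 CPM. In all 4 AA+Ab lay between Neg and AA. Of 7 tested of 25 interferon gamma response genes, 2 were at least 1.5-fold higher in AA than in Neg, beside 2.66% of all genes tested. Among them was *Irf1* (chr11:53770014-53778374), an early target, at 39.7 CPM in Neg, 68.6 CPM in AA and 85.9 CPM in AA+Ab. *Irf1* was thus highest in AA+Ab, 2.17-fold above Neg, but this order depended on the cells. In the basal cells under the median UMI count of their library, a split chosen after seeing the data, it was at 41.4, 70.7 and 60.5 CPM, with AA the highest and AA+Ab 1.46-fold above Neg, and from the median up this ratio was 2.64. The cells left out of AA for *Iigp1* held *Irf1* at 214 CPM. The other 5 genes did not pass 1.5-fold, and the median log2 ratio of the 7 was 0.30 in AA against Neg.

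The GTPases that interferon gamma induces strongly were scarce in these cells. *Gbp2* was at 5.77, 11.8 and 6.62 CPM, *Igtp* at 1.59, 3.81 and 2.32 CPM, *Irgm1* at 2.76, 4.48 and 2.38 CPM and *Ifi47* at 0.251, 2.86 and 0.331 CPM. In each of the 4, AA was the highest library, at levels below the minimum for the comparison. With the *Iigp1* cells kept, the summed type I list was 179.7, 381 and 206 CPM in Neg, AA and AA+Ab, against 179.7, 261 and 189 CPM without them, so the ratio of AA to Neg went from 1.45 to 2.12. For the interferon gamma list the ratio went from 1.31 to 1.58. The choice of cells thus removed part of the difference. In T cells the summed type I list was at 365, 817 and 362 CPM in Neg, AA and AA+Ab. The interferon gamma list was at 577, 1476 and 641 CPM in T cells, against 593, 777 and 677 CPM in basal cells. AA was thus the high library in T cells too. The part of RNA from other cells in the basal values was not tested.

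Antigen presentation by MHC class I was present in all 3 libraries and differed little. *H2-K1* was at 1299.8 CPM in Neg, 1503 CPM in AA and 1387 CPM in AA+Ab, *H2-D1* at 1164, 1198 and 1179 CPM, between which reads of like sequence may be split, and *B2m*, the shared light chain, at 1435, 1641 and 1633 CPM. Of 14 tested of 16 genes, 0 passed 1.5-fold in any comparison. Of all genes tested, 2.66% were higher and 1.57% lower in AA against Neg, and 0.681% and 2.44% in AA+Ab against Neg. In AA+Ab against AA 1.15% were higher and 5.08% lower, so a count of 0 in 14 genes lies near those shares. The ratio of AA to Neg was above 1 in 13 of the 14, with a median log2 ratio of 0.16. Of the peptide transporter, *Tap1* was at 76.3, 79.05 and 67.2 CPM and *Tap2* at 40.6, 42.996 and 34.8 CPM. Of 7 genes of MHC class II 1 had a mean of at least 10 CPM. This was *Cd74*, the invariant chain, at 14.98, 21.9 and 10.5 CPM, with a log2 ratio of AA+Ab to AA of -1.06. It had a UMI in 9.35, 12.1 and 8.1004% of the basal cells and 11.8, 10.8 and 9.12% of T cells. The 7 genes summed to 45.3, 55.6 and 38.0 CPM in basal cells and 943, 738 and 430 CPM in T cells. T cells are thus no clean background for *Cd74*, and the source of its UMIs in basal cells was not tested. *H60c*, a ligand of the receptor NKG2D in skin, was at 32.8, 41.3 and 41.8 CPM.

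Of 22 chemokines and cytokines listed, 5 had a mean of at least 10 CPM in basal cells. *Ccl27a*, the keratinocyte chemokine that attracts skin-homing T cells, was at 1044 CPM in Neg, 676 CPM in AA and 891 CPM in AA+Ab, 1.54-fold lower in AA than in Neg. *Il34*, a ligand of the CSF1 receptor on which Langerhans cells depend, was at 55.6 CPM in Neg, 33.4 CPM in AA and 33.4 CPM in AA+Ab, low in both model libraries. *Il33*, an alarmin, was at 160.1, 150.4 and 186 CPM, with a UMI in 68.8, 60.4 and 64.4% of the cells against 3.92, 5 and 4.84% of T cells. *Cxcl14* was at 308, 277 and 283 CPM and *Cxcl16*, the ligand of CXCR6, at 95.3, 123 and 74.6 CPM. *Cxcl10*, which attracts T cells through CXCR3, was at 3.01, 2.41 and 0.994 CPM and *Il15* at 1.004, 0.616 and 0.596 CPM. *Cxcl12*, the target of the antibody, was at 3.93, 10.97 and 7.02 CPM, against 18.2, 26.4 and 25.3 CPM in the other kept cells.

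*Ripk1* (chr13:34002363-34037147), the gene of a kinase that directs survival, inflammation and cell death after TNF signalling, stood at 29.4 CPM in Neg, 48.4 CPM in AA and 52.99 CPM in AA+Ab in basal keratinocytes. Both model libraries were higher than Neg, 1.65-fold in AA (log2 ratio 0.72, 95% interval 0.54 to 0.90) and 1.80-fold in AA+Ab (log2 ratio 0.85, 95% interval 0.67 to 1.04), and they did not differ by 1.5-fold from each other. The ratio of AA+Ab to Neg was 1.29 in the basal cells under the median UMI count, short of 1.5-fold, and 2.15 in those from the median up. The ratios of AA to Neg in the same cells were 1.53 and 1.73. In cycling cells *Ripk1* was 1.18-fold higher in AA and 1.42-fold higher in AA+Ab than in Neg, both under 1.5-fold. In suprabasal cells it was at 34.6, 32.2 and 36.1 CPM. *Ripk3*, which acts after it in necroptosis, was at 4.94, 5.32 and 4.31 CPM and *Mlkl*, the last step, at 0.167, 0.392 and 0.596 CPM, both under the minimum for the comparison. Of 13 tested cell death genes, 2 were at least 1.5-fold higher in AA than in Neg, beside 2.66% of all genes tested. They were *Ripk1* and *Bbc3*, a BCL2-family gene induced by p53, at 7.78, 15.4 and 9.74 CPM. *Bbc3* reached the minimum mean of the comparison only through AA, the library in which it was high. *Casp8*, which cleaves RIPK1, was at 17.2, 15.1 and 12.98 CPM and *Mcl1*, a survival gene, at 416, 439 and 416 CPM.

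Few genes of early differentiation and proliferation passed 1.5-fold between the libraries. *Sfn*, the 14-3-3 protein of keratinocytes, was at 5139.6 CPM in Neg, 6902 CPM in AA and 5421 CPM in AA+Ab, *Lgals7*, galectin 7, at 5149.6, 4514 and 5141 CPM and *Ly6d* at 1087, 1029 and 1269 CPM. Of 12 tested of 14 genes, 0 passed 1.5-fold in AA against Neg, beside 2.66% higher and 1.57% lower of all genes tested. *Fabp5*, an epidermal fatty acid-binding protein, was 1.97-fold higher in AA+Ab than in AA, at 112, 83.6 and 165 CPM, but it was at 629.7, 371 and 997 CPM in T cells and 2347, 1544 and 1744 CPM in all other kept cells. The part of free RNA in this value was not tested. None of 9 tested cell cycle genes passed 1.5-fold in any comparison. The shares of all genes tested were small too, at most 2.66% higher and 5.08% lower in a comparison. All 9 had a ratio above 1 in AA+Ab against Neg and in AA+Ab against AA, and 2 of 9 in AA against Neg. The summed list was 1.13-fold higher in AA+Ab than in Neg and 1.23-fold higher than in AA. *Pcna* was at 51.3, 49.04 and 54.3 CPM, and *Cdkn1a*, the inhibitor p21, at 399, 476 and 399 CPM. *Krt17*, a stress keratin, was at 80.7, 119 and 137 CPM and was 1.70-fold higher in AA+Ab than in Neg, but it reached 133, 779 and 456 CPM in T cells.

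AA+Ab against Neg shares its Neg library with AA against Neg, so a gene with a low value in that library stands out in both. At the upper end, *Aqp3*, a glycerol and water channel of the epidermis, was at 18.9 CPM in Neg, 43.5 CPM in AA and 50.01 CPM in AA+Ab. *Cebpd*, a C/EBP transcription factor, was at 41.9, 83.8 and 94.9 CPM, *Cdkn2d*, an INK4 inhibitor of cyclin-dependent kinases, at 39.5, 77.3 and 89.4 CPM, *Kitl*, which encodes stem cell factor for melanocytes and mast cells, at 27.6, 54.5 and 55.98 CPM, with a log2 ratio of -0.079 where the keratin minimum was 2%, and *Tgm3*, a transglutaminase, at 13.1, 27.04 and 27.8 CPM. *Fam110c* was at 26.4, 37.6 and 63.9 CPM, highest in AA+Ab. *Mlf1* was at 14.98, 34.8 and 32.1 CPM. At the lower end, *Depp1*, a gene induced by FOXO factors, was at 197 CPM in Neg, 102 CPM in AA and 82.5 CPM in AA+Ab, low in both model libraries, and *Plet1*, an epithelial surface protein, at 308 CPM in Neg, 328 CPM in AA and 144 CPM in AA+Ab, low in AA+Ab alone. *Homer1*, a scaffold protein, was at 64.3, 44.8 and 25.2 CPM.

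AA+Ab against AA had the most genes past 1.5-fold, and 388 of them were lower in AA+Ab against 88 higher. *Tsc22d2* was at 254 CPM in Neg, 529 CPM in AA and 224 CPM in AA+Ab and *Dennd2c*, an exchange factor for Rab GTPases, at 348 CPM in Neg, 548 CPM in AA and 239.9 CPM in AA+Ab. *Nr1d1*, the clock repressor REV-ERB alpha, was at 35.98 CPM in Neg, 59.7 CPM in AA and 17.9 CPM in AA+Ab, with AA+Ab 3.34-fold below AA and 2.01-fold below Neg. *Pard6b*, a protein of the cell polarity complex, was at 58.1, 70.2 and 28.1 CPM. Of the 20 genes named for this comparison 7 were higher in the T cells than in the basal cells of all 3 libraries, namely *Tsc22d3*, *Ptgds*, *Mlana*, *Pik3r1*, *Fabp5*, *Fkbp5* and *Dusp5*. *Mlana*, a melanocyte gene, was at 31.04, 12.9 and 32.6 CPM in basal cells and 35.8, 23.3 and 98.6 CPM in T cells, and *Ptgds*, a prostaglandin D synthase, was at 42.6, 22.6 and 56.6 CPM and 59.1, 30.1 and 131 CPM.

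Most of the named differences were seen in other keratinocytes of the same libraries. Of the 20 genes named for AA against Neg, 20 had the same direction in cycling cells, chosen by *Mki67* or *Top2a*, and 20 passed 1.5-fold there. In suprabasal cells 20 had the same direction and 18 passed, and in the cells left out for *Krt16* 20 and 20. In T cells 15 had the same direction and 8 passed. *Txnip* was at 946, 196 and 803 CPM in cycling cells, 723, 202 and 677 CPM in suprabasal cells and 425, 252 and 408 CPM in T cells of Neg, AA and AA+Ab. *Mt1* was at 3306, 1636 and 2662 CPM in suprabasal cells and 2460.2, 604 and 1698 CPM in T cells. All cells of a library share its digestion and free RNA, and *Krt14* reached 1345, 853 and 1102 CPM in T cells. The low *Txnip* and *Mt1* of AA were therefore not particular to basal cells.

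**Figure D5:**
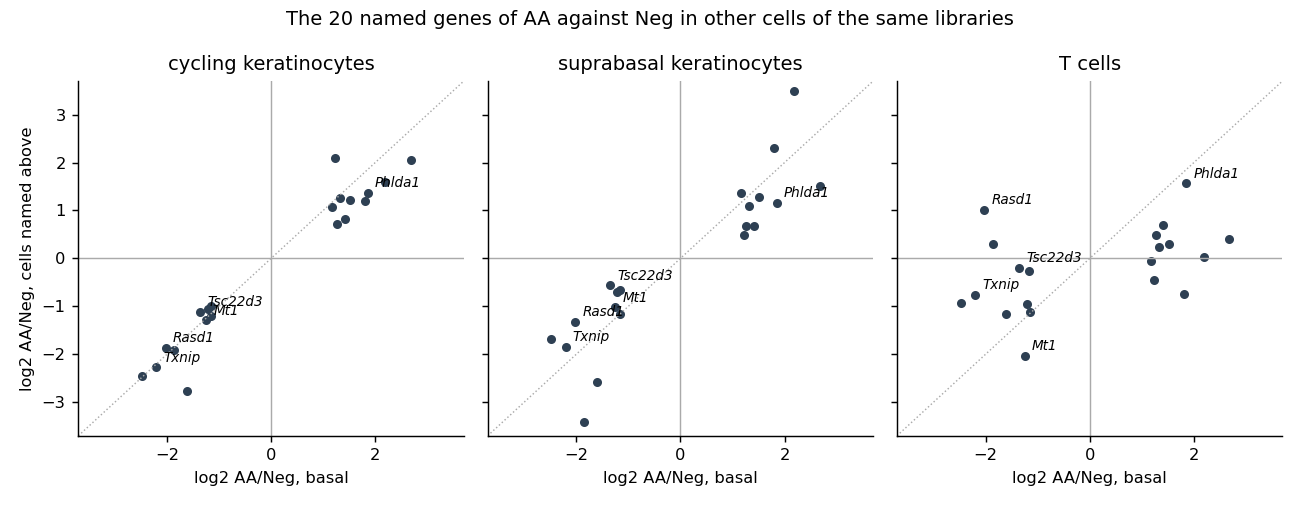
Log2 ratio of CPM of AA to Neg for the 20 named genes in basal cells (horizontal axis) and in cycling, suprabasal and T cells (vertical axes), the dotted line marking equal ratios. All 20 genes keep their side of 0 in cycling and suprabasal cells and 15 do in T cells.

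Genes of other cell types were found at low levels. The 4 melanocyte genes summed to 130.02 CPM in Neg, 58.5 CPM in AA and 122 CPM in AA+Ab. In AA 4 of 4 were at least 1.5-fold lower than in Neg, beside 1.57% of all genes tested. In AA+Ab 4 of 4 were at least 1.5-fold higher than in AA, beside 1.15%. *Dct* had a UMI in 37.1, 18.7 and 33.3% of basal cells and 38.2, 20.8 and 35.3% of T cells, so its share was about the same in cells that should lack it. The 6 fibroblast genes summed to 103 CPM in Neg, 70.4 CPM in AA and 95.7 CPM in AA+Ab. The 8 T cell genes summed to 10.1 CPM in Neg, 7.78 CPM in AA and 9.34 CPM in AA+Ab, and *Cd8a* had no UMI in Neg and AA+Ab. The 7 myeloid genes summed to 7.11 CPM in Neg, 4.65 CPM in AA and 4.97 CPM in AA+Ab, and none of these T cell and myeloid genes reached a mean of 10 CPM. The 5 sebaceous gland genes summed to 100.3 CPM in Neg, 83.2 CPM in AA and 99.1 CPM in AA+Ab, the 4 muscle genes to 58.2 CPM in Neg, 49.8 CPM in AA and 53.7 CPM in AA+Ab, the 10 measured genes of hair shaft and inner root sheath to 31.9 CPM in Neg, 22.3 CPM in AA and 40.2 CPM in AA+Ab and the 4 hemoglobin genes to 1.34 CPM in Neg, 0.8398 CPM in AA and 1.72 CPM in AA+Ab. All 8 sums were lowest in AA, although the hemoglobin sum was higher in AA than in Neg, at a log2 ratio of 0.65, without cells holding a follicle gene UMI. AA was also the lowest library for *Txnip* and *Mt1*, and the part of other cells' RNA in those results was not tested. *Txnip* and *Mt1* were higher in basal cells than in T cells of every library except that *Txnip* in AA was at 222 CPM against 252 CPM.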

How the data were processed

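For each of the 3 libraries the authors deposited a filtered matrix of counts (UMIs per gene and barcode) from 10x 3′ libraries. The submitters' processing notes name Cell Ranger 7.2.0 and mm10, while the annotation release and the treatment of intronic reads are not given in the sources used here. Barcodes with at least 200 genes and at most 10% mitochondrial UMIs were kept. Basal cells were taken by the stated rule, and their UMIs were summed and scaled to CPM. The members and gene lists were chosen with earlier results of these data known. Genes with a mean of at least 10 CPM were compared, and 1.5-fold was the mark. Intervals were exact 95% intervals for counts, shares (Clopper-Pearson) and ratios, covering counting error only. With 1 library per group, no p-value was computed. For each comparison the 10 genes at either end of the ratio of (CPM + 5) were named, leaving out the genes of the rule, together with genes of the lists at their ends or of highest level. Some genes that these rules name are not reported here. The 15 leading genes had the largest ratio to other cells among those of at least 50 CPM. Doublets were scored against simulated ones and kept. The steps were tested on simulated data. Upstream sequences came from RefSeq tables of GRCm38.p6, and gene positions from the GENCODE annotation of GRCm38. Scripts ran in Python 3.11.15. Intervals came from scipy 1.17.1, tables from pandas 2.3.3 and numpy 2.4.6, doublet scores from scikit-learn 1.9.0 and plots from matplotlib 3.10.9.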

Additional observations from a re-analysis of the deposited data

How the results depend on the processing

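No replicate could be left out, and no paired analysis was possible because each group is 1 library. The cause of the shifts below was not tested beyond what each setting removes. Shares of basal cells in Neg, AA and AA+Ab moved to 15.8%, 17.1% and 14.997% with mitochondrial UMIs of at most 5%, to 3.18%, 4.34% and 3.96% with a keratin minimum of 2%, to 17.3%, 21.0% and 16.3% with *Krt16* cells kept, to 27.4%, 27.6% and 25.3% after thinning to 2000 UMIs and to 38.3%, 43.2% and 38.0% with the keratin and *Ptprc* conditions alone, a setting chosen after seeing the data. Keeping *Iigp1* cells gave 17.6% in AA. The number of genes past 1.5-fold is given here as higher and lower in AA against Neg, then AA+Ab against Neg, then AA+Ab against AA. It was 333 and 335, 194 and 349, and 253 and 453 with the keratin minimum of 2%. Without cells holding a follicle gene UMI it was 702 and 703, 585 and 869, and 617 and 924. *Postn* alone had a UMI in 64.1, 66.8 and 66.2% of the basal cells of Neg, AA and AA+Ab, so the ratios of that setting rest on smaller counts. A minimum mean of 30 CPM gave 128 and 46, 24 and 113, and 34 genes higher in the last. A 2-fold mark gave 26 and 22, 13 and 22, and 15 and 67. Thinning gave 229 lower, 143 higher and 203 higher in the 3 comparisons, and a minimum mean of 5 CPM gave 223 lower, 82 higher and 173 higher. Leaving mitochondrial, ribosomal protein and hemoglobin genes out of the total gave 193 lower in AA against Neg and 168 higher in AA+Ab against AA. Cells at or above the median UMI count, a setting chosen after seeing the data, gave 96 higher and 281 lower in AA+Ab against Neg. Of the named genes' 659 recomputed ratios 657 kept their direction. *Ovol1* in AA against Neg turned to -0.25 without follicle UMIs and *Kitl* in AA+Ab against Neg to -0.079 with the keratin minimum of 2%. The red blood cell list held 16, 15 and 26 UMIs in all basal cells of Neg, AA and AA+Ab. Without follicle UMIs it turned to 0.65 in AA against Neg and to -0.88 in AA+Ab against AA. In the latter it also turned to -0.066 with the keratin minimum of 2%. Of 918 list ratios 859 kept their direction. With 1 CPM added in place of 5, the naming rule kept 16, 17 and 14 of 20 genes. A gene without a UMI in all basal cells of a library allows up to 0.251 CPM in Neg, 0.168 CPM in AA and 0.199 CPM in AA+Ab.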

Other observations

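The gene lists of this paragraph and the next were written after the levels of their members had been seen, so their counts support nothing further. Genes of cholesterol synthesis and uptake stood high in AA. *Sqle*, squalene epoxidase, was at 18.3, 35.998 and 14.04 CPM in Neg, AA and AA+Ab, *Msmo1* at 155, 281 and 127 CPM, and *Cyp51* at 70.8, 133 and 64.7 CPM, all enzyme genes of the pathway with AA as the high library. Of 18 tested of 25 genes, 6 were at least 1.5-fold higher in AA than in Neg, beside 2.66% of all genes tested. At least 1.5-fold lower in AA+Ab than in AA were 10, beside 5.08%. The medians of the log2 ratio were 0.34 and -0.76.

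Glucocorticoid-induced genes had the opposite order. Of 15 tested of 18 genes, 5 were at least 1.5-fold lower and 1 higher in AA against Neg, beside 1.57% and 2.66% of all genes tested. In AA+Ab against AA 8 were higher and 0 lower, beside 1.15% and 5.08%. The median log2 ratios were -0.44 and 0.64. *Klf9* was at 391, 276 and 383 CPM, *Zbtb16* at 185, 148 and 235 CPM and *Glul*, glutamine synthetase, at 76.6, 56.5 and 96.6 CPM. *Per1*, a clock gene that glucocorticoids also induce, was at 56.2, 34.3 and 36.5 CPM, low in both model libraries. Of 13 tested clock genes, 4 were at least 1.5-fold lower in AA+Ab than in Neg, beside 2.44% of all genes tested. *Cry1* and *Cry2*, the cryptochromes, were at 21.8, 29.4 and 11.4 CPM and 18.1, 21.6 and 9.61 CPM. The hour at which each group was sampled is not given in the sources used here. Of 16 tested target and feedback genes of ERK, 7 were higher and 2 lower in AA against Neg, beside 2.66% and 1.57% of all genes tested. *Dusp6*, a phosphatase of ERK, was at 65.3, 125 and 68.7 CPM and *Spry2*, an inhibitor of the pathway, at 15.1, 9.13 and 17.6 CPM.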
